A study of Mus with 96 samples.

Results

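The nuclear receptors of the REV-ERB and ROR families examined here were Nr1d1 (REV-ERBα), Nr1d2 (REV-ERBβ) and Rora (RORα), the 3 rows of the count table that carry these gene names, of 55487 gene rows in all. All 3 passed the filter on low counts, which required at least 100 reads summed over all libraries and left 15548 genes to be tested. By mean level, Nr1d1 stood above 62.4%, Nr1d2 above 70.3% and Rora above 87.4% of the tested genes. In GRCm38.p6, the mm10 assembly, Nr1d1 (ENSMUSG00000020889) lies at chr11:98767932-98775377, Nr1d2 (ENSMUSG00000021775) at chr14:18204056-18239106 and Rora (ENSMUSG00000032238) at chr9:68653404-69388246.

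REV-ERB and ROR receptors bind the same DNA element, the ROR response element or RORE. RORs activate transcription from it, whereas REV-ERBs bind heme and repress it by recruiting the NCoR-HDAC3 corepressor complex. BMAL1, encoded by Arntl, pairs with CLOCK or NPAS2 and drives Nr1d1 and Nr1d2 through E-boxes in their promoters, and the receptors in turn act on the ROREs of Arntl, Clock, Npas2, Cry1 and Nfil3, which closes the stabilising loop of the clock. In the liver REV-ERBs also repress genes of lipid and glucose metabolism.

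Livers of 96 mice were profiled by BRB-seq, a 3′ RNA sequencing method in which samples are barcoded early and pooled, with 4 mice in each combination of genotype, diet and 1 of 6 zeitgeber times (ZT 2, 6, 10, 14, 18 and 22; ZT is hours after lights on). Hep-Bmal1KO mice carried AlbCre/+ and Bmal1flx/flx, and their Hep-Bmal1WT littermates carried the same floxed alleles without Cre. The albumin promoter drives Cre in hepatocytes, so other liver cells retain Bmal1. Mice 8 to 10 weeks old received normal chow (NC, 14% fat) or a high-fat diet lacking choline (cdHFD, 60% fat and 2% cholesterol), which is used to induce steatohepatitis, for 2 weeks with free access to food under 12 hours of light and 12 of darkness. Both sexes were used, 2 males and 2 females in each cell except 3 males and 1 female in Hep-Bmal1WT on cdHFD at ZT14. Each library is a separate mouse, and replicate numbers only name the livers of a cell, in the order of the deposit.

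The libraries held 1861740 to 9718615 reads in genes (median 6412078). Positions along an axis of 20 genotype-responsive genes, chosen for each ZT from the other 5, put 8 of the 96 libraries nearer the other genotype label, 2 in each combination of genotype and diet. They were Hep-Bmal1WT on NC at ZT6 (replicate 2) and ZT18 (replicate 4), Hep-Bmal1WT on cdHFD at ZT10 (replicate 3) and ZT14 (replicate 1), Hep-Bmal1KO on NC at ZT6 (replicate 4) and ZT10 (replicate 3), and Hep-Bmal1KO on cdHFD at ZT14 (replicate 1) and ZT22 (replicate 4). The ends of this axis were medians over the other libraries of the same diet and ZT. Those labelled Hep-Bmal1WT set 0 and those labelled Hep-Bmal1KO set 1, and the last of the 8 lay close to the midpoint at 0.41. Labels were kept, and values without these 8 are given beside the tests of the receptors and where they change a count of a gene list. Because they were found with genes that differ by genotype, values without them are not independent support. Each plate column held 1 combination of genotype and diet at neighbouring ZTs, so plate position cannot be told apart from group or from time of day. Arntl itself does not check the deletion, since its 3′ tag lies outside the floxed part.

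Nr1d1 in chow-fed Hep-Bmal1WT livers rose and fell by more than an order of magnitude over the day. At ZT2 its level was 2.33, 9.21, 10.5 and 17.2 CPM (counts scaled to the size of each library by the TMM method) in the 4 livers, and at ZT6 it was 14.9, 58.1, 84.7 and 88.8 CPM. The lowest ZT6 value belonged to the discordant library, and the other 3 values lay above every value at ZT2. At ZT10 the levels were 34.6, 44.8, 50.3 and 51.2 CPM, and at ZT14 they were 7.16, 10.1, 10.9 and 20.5 CPM. These times did not overlap, and the decline went on into the night. The 4 livers held 0.513, 1.60, 2.01 and 2.13 CPM at ZT18 and 1.72, 1.77, 1.83 and 2.85 CPM at ZT22. The highest mean, 61.6 CPM at ZT6, was 39.4 times the lowest, 1.56 CPM at ZT18.

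In chow-fed Hep-Bmal1KO livers the day peak of Nr1d1 was lower but present. The values were 0.711, 1.82, 2.40 and 6.22 CPM at ZT2 and 10.6, 14.0, 16.5 and 84.01 CPM at ZT6. At ZT10 they were 6.70, 8.81, 10.4 and 51.9 CPM, and the highest value at each of ZT6 and ZT10 came from a discordant library. Apart from those, every Hep-Bmal1KO value at ZT6 and ZT10 lay below the concordant Hep-Bmal1WT values. At ZT14 the levels were 2.96, 3.95, 5.82 and 7.42 CPM, which overlapped the Hep-Bmal1WT range only at its lower end. The genotypes overlapped in the night, with 1.42, 2.07, 2.14 and 2.35 CPM at ZT18 and 1.43, 1.49, 1.59 and 1.78 CPM at ZT22. The ZT6 mean was 19.9 times the lowest mean with all libraries and 8.73 times without the discordant ones.

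On cdHFD the Nr1d1 maximum of Hep-Bmal1WT livers was at ZT2, the time at which chow-fed livers were still low. The values at ZT2 were 46.2, 51.6, 66.5 and 67.7 CPM, all above the 17.2 CPM of the highest chow-fed liver. At ZT6 they were 21.5, 24, 26.1 and 38.5 CPM, and at ZT10 3.14, 4.39, 6.59 and 8.67 CPM. Every cdHFD liver was thus below every chow-fed one at ZT10, the reverse of ZT2. The remaining times were low, with 1.04, 1.25, 1.26 and 3.80 CPM at ZT14, 1.87, 1.90, 2.01 and 2.29 CPM at ZT18 and 1.29, 2.12, 2.46 and 3.44 CPM at ZT22.

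Hep-Bmal1KO livers on cdHFD had a smaller Nr1d1 maximum and a slower decline. The mean was highest at ZT2 by little, with 12.65 CPM at ZT2, 11.4 CPM at ZT6 and 10.6 CPM at ZT10, and the single livers at these times overlapped. These livers held 9.75, 11, 14.8 and 15.1 CPM at ZT2 and 8.03, 11.6, 11.6 and 14.3 CPM at ZT6, with no overlap with Hep-Bmal1WT at either time. At ZT10 they held 5.47, 8.37, 9.93 and 18.8 CPM, and at ZT14 3.36, 3.69, 3.90 and 3.92 CPM. Here the order turned: at ZT14 the lowest Hep-Bmal1KO liver was above 3 of the 4 Hep-Bmal1WT livers. At ZT18 the values were 0.816, 1.11, 1.43 and 1.60 CPM, and at ZT22 1.78, 2.21, 2.25 and 2.56 CPM.

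**Figure D1:**
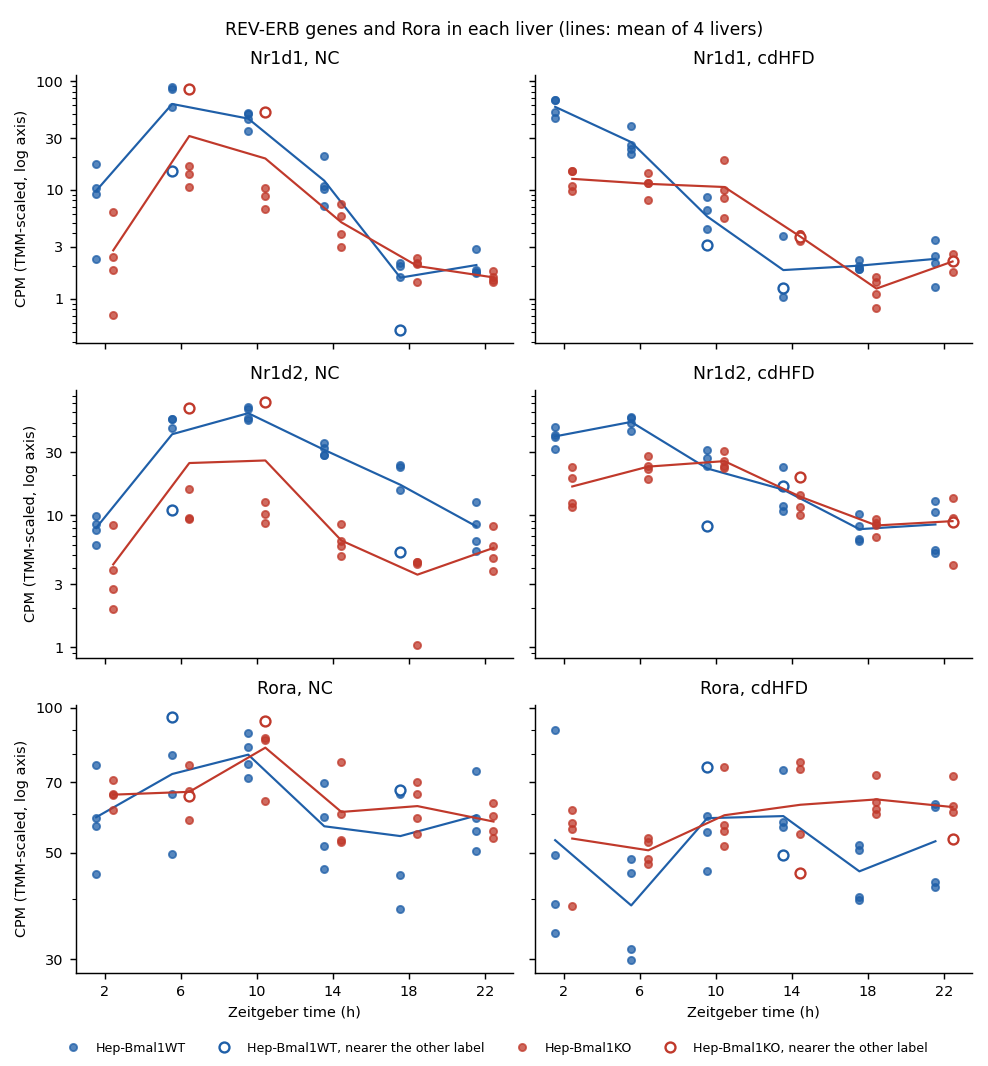
Level of Nr1d1, Nr1d2 and Rora (CPM, log axis) against zeitgeber time (h) in the 4 combinations of genotype and diet; points are single livers, lines join the means of 4 livers per time. On NC the Hep-Bmal1WT mean of Nr1d1 is highest at ZT6 (61.6 CPM) and on cdHFD at ZT2 (58 CPM), whereas Rora stays between 29.9 and 95.7 CPM in all libraries.

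Nr1d2 had a broader wave. In chow-fed Hep-Bmal1WT livers it measured 5.94, 7.70, 8.57 and 9.85 CPM at ZT2, 11, 45.96, 53.2 and 53.7 CPM at ZT6, and 52.8, 54.5, 63.3 and 65.8 CPM at ZT10. The single low value at ZT6 was again the discordant library. Levels were 28.6, 28.8, 32.5 and 34.97 CPM at ZT14, 5.30, 15.4, 23.3 and 24 CPM at ZT18, and 5.38, 6.39, 8.54 and 12.6 CPM at ZT22. At ZT14 every value lay above every value at ZT2, and Nr1d2 came back near its ZT2 range only by ZT22.

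Chow-fed Hep-Bmal1KO livers held less Nr1d2 through most of the cycle. The values were 1.956, 2.76, 3.84 and 8.42 CPM at ZT2, 9.40, 9.50, 15.9 and 64.5 CPM at ZT6, and 8.70, 10.3, 12.7 and 72.1 CPM at ZT10. The values of 64.5 and 72.1 CPM belonged to the discordant libraries. At ZT14 the livers held 4.94, 5.80, 6.39 and 8.61 CPM and at ZT18 1.04, 4.26, 4.45 and 4.46 CPM, with no overlap with Hep-Bmal1WT at either time. At ZT22 the genotypes overlapped, with 3.79, 4.76, 5.83 and 8.26 CPM in Hep-Bmal1KO livers.

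On cdHFD the Nr1d2 wave of Hep-Bmal1WT livers came earlier. It measured 31.6, 38.8, 40.7 and 46.7 CPM at ZT2, 43.2, 49.97, 54.5 and 55.4 CPM at ZT6, and 8.28, 23.4, 27.3 and 31.3 CPM at ZT10. Every ZT2 value was above, and every ZT10 value below, the chow-fed values of the same genotype. Levels then fell to 10.8, 11.7, 16.6 and 23.3 CPM at ZT14, 6.395, 6.56, 8.25 and 10.2 CPM at ZT18, and 5.17, 5.49, 10.6 and 12.8 CPM at ZT22.

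Hep-Bmal1KO livers on cdHFD had a flatter Nr1d2 wave with its mean highest at ZT10. The values were 11.45, 12.3, 18.97 and 23.3 CPM at ZT2, 18.8, 22.5, 23.7 and 28.2 CPM at ZT6, and 22.7, 23.5, 25.7 and 30.6 CPM at ZT10. They were below all Hep-Bmal1WT values at ZT2 and ZT6. At ZT10 they lay within the Hep-Bmal1WT range, but its low end of 8.28 CPM was a discordant library. The next Hep-Bmal1WT liver held 23.4 CPM, above the lowest Hep-Bmal1KO liver at 22.7 CPM. At ZT14 the Hep-Bmal1KO values were 10, 11.6, 14.1 and 19.4 CPM, at ZT18 6.79, 8.47, 8.78 and 9.41 CPM, and at ZT22 4.21, 8.94, 9.52 and 13.4 CPM.

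Rora was nearly flat. Its level ranged from 38.1 to 95.7 CPM (median 62.7) in the 24 chow-fed Hep-Bmal1WT livers and from 52.7 to 93.9 CPM (median 64.8) in the chow-fed Hep-Bmal1KO livers. On cdHFD it ranged from 29.9 to 89.8 CPM (median 49.4) in Hep-Bmal1WT and from 38.7 to 76.98 CPM (median 57.4) in Hep-Bmal1KO livers. All 4 ranges overlapped, and the highest mean over the 6 ZTs exceeded the lowest by 1.28 to 1.53 times, against 10.2 to 39.4 times for Nr1d1 and 3.07 to 7.38 times for Nr1d2.

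Rhythms were tested with a 24-hour sine and cosine pair in edgeR's quasi-likelihood model, with p-values adjusted over all 15548 genes by the Benjamini-Hochberg method; amplitude here is the distance from the daily mean to the peak on the log2 scale. Nr1d1 was rhythmic in all 4 groups, with an amplitude of 2.80 in Hep-Bmal1WT on NC (adjusted p = 3.0e-09), 2.34 in Hep-Bmal1KO on NC (1.1e-04), 2.82 in Hep-Bmal1WT on cdHFD (1.1e-09) and 1.70 in Hep-Bmal1KO on cdHFD (9.0e-07). Nr1d2 was rhythmic in the same groups with amplitudes of 1.49 (4.3e-06), 1.47 (0.0063), 1.36 (4.3e-07) and 0.86 (1.2e-05) in that order. Rora passed in none, with amplitudes of 0.26, 0.19, 0.11 and 0.17 and adjusted p between 0.072 and 0.71. Its unadjusted p was 0.017, 0.018, 0.54 and 0.043 in the same order. Of all genes tested, 19.1%, 4.34%, 14.6% and 3.83% were called in the respective groups. In Hep-Bmal1KO on NC the values rested partly on the discordant livers: without them the amplitude was 1.58 for Nr1d1 (adjusted p = 1.4e-04) and 0.72 for Nr1d2 (adjusted p = 0.0425), with 3.89% of genes called. In the other 3 groups the calls of both REV-ERBs held without those libraries. A least-squares cosinor on variance-stabilised values, used below for peak times, gave Nr1d2 in that group an adjusted p of 0.080.

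The genotype comparison asked what loss of hepatocyte Bmal1 did to the level of each receptor. On NC, averaged over the 6 ZTs, Nr1d1 was 2.05 times and Nr1d2 2.47 times lower in Hep-Bmal1KO than in Hep-Bmal1WT livers. The log2 difference was −1.03 (SE 0.26, adjusted p = 0.0043) for Nr1d1 and −1.31 (SE 0.24, adjusted p = 1.2e-04) for Nr1d2, where 12.6% of all genes were called and 5.61% were called lower. The values were −1.62 and −1.85 without the discordant libraries, or 3.08 and 3.597 times lower, with 17.1% of genes called. Rora did not pass, with a log2 difference of 0.06 (95% interval −0.08 to 0.19, adjusted p = 0.71). In whole liver, fewer cells of a type and less RNA per cell cannot be told apart.

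On cdHFD the estimated genotype difference in the daily mean was smaller for both REV-ERBs and did not pass with all libraries. For Nr1d1 the genotype by diet interaction did not pass, at 0.47 (SE 0.35, adjusted p = 0.53) with all libraries. It was 0.91 (adjusted p = 0.061) without the discordant ones, and 3.04% and 5.85% of genes were called. The interaction of Nr1d2 is given with the diet comparison below. Nr1d1 differed by −0.61 (SE 0.22, adjusted p = 0.064), Nr1d2 by −0.40 (SE 0.14, adjusted p = 0.068) and Rora by 0.20 (SE 0.084, adjusted p = 0.13), where 9.61% of all genes were called. Without the discordant libraries all 3 passed, at −0.78 (0.0081), −0.50 (0.0069) and 0.25 (0.033), with 13.3% of genes called. The summed level of 5 cholangiocyte markers had a median of 51.1 CPM in Hep-Bmal1WT and 89.9 CPM in Hep-Bmal1KO on NC, and 104 against 225 CPM on cdHFD. The sum of 6 hepatocyte markers had a median of 145600 CPM in Hep-Bmal1WT and 94910 CPM in Hep-Bmal1KO on NC, with 2 of the 6 called lower. The other 4 were not called, and the log2 differences of the 6 had a median of 0.03 (−0.83 to 0.17). Without the discordant libraries 2 were called lower and 1 higher on NC, where 17.1% of all genes were called. On cdHFD 4 of 6 stellate cell and fibroblast markers and 2 of 3 neutrophil markers were called higher in Hep-Bmal1KO. The part of these cell types in the results was not tested.

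**Figure D2:**
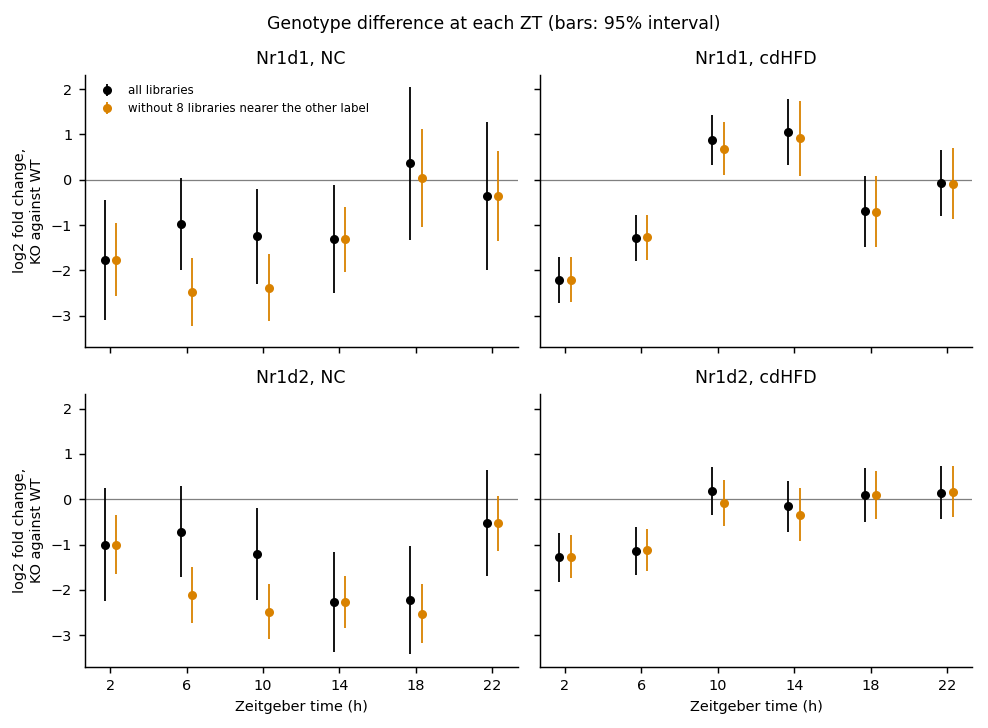
Log2 difference in level, Hep-Bmal1KO minus Hep-Bmal1WT, at each zeitgeber time (h) on NC and on cdHFD for Nr1d1 and Nr1d2. Bars are 95% intervals of the edgeR estimate, with all libraries and without the 8 discordant ones. On cdHFD, with all libraries, Nr1d1 runs from −2.21 at ZT2 to 1.06 at ZT14.

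The daily mean hid differences that depended on the hour. On cdHFD Nr1d1 was 4.62 times lower in Hep-Bmal1KO livers at ZT2 (log2 difference −2.21, adjusted p = 6.2e-07) and 2.43 times lower at ZT6 (−1.28, adjusted p = 0.0057). Nr1d2 was 2.42 times lower at ZT2 (−1.28, adjusted p = 0.014) and 2.19 times lower at ZT6 (−1.13, adjusted p = 0.023). At these times 1.29% and 0.843% of all genes were called. All 4 calls held without the discordant libraries, which lie at other times. At ZT10 and ZT14 the Nr1d1 differences were 0.88 and 1.06 in the other direction and did not pass (adjusted p = 0.18 and 1.0), where 0.0129% and 0% of genes were called. They were smaller without the discordant libraries, at 0.68 (adjusted p = 0.28) and 0.92 (0.54).

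On NC the only time at which a receptor passed with all libraries was ZT14, where Nr1d2 was 4.81 times lower in Hep-Bmal1KO livers (log2 difference −2.27, adjusted p = 0.016, with 3.06% of genes called). At ZT2, ZT6, ZT10, ZT18 and ZT22 the share of genes called was 0.135%, 0%, 1.42%, 0.00643% and 0.482%. Without the discordant libraries Nr1d2 passed at ZT6, ZT10, ZT14 and ZT18, with differences from −2.52 to −2.11. Nr1d1 then passed at ZT2, ZT6, ZT10 and ZT14, with differences of −1.76, −2.47, −2.38 and −1.31. The share of genes called at these 5 times without those libraries was 0.92%, 1.36%, 5.76%, 4.61% and 1.84%. At ZT2 Nr1d2 had a difference of −1.001 and did not pass (adjusted p = 0.17). No test compared the receptors with each other.

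Whether the genotype changed the daily curve was tested by the interaction of genotype with the sine and cosine terms, reported as the length of the difference between the fitted curves' vectors on the log2 scale. On cdHFD this was 1.69 for Nr1d1 (adjusted p = 6.5e-04, with 0.424% of genes called) and 0.70 for Nr1d2 (adjusted p = 0.20), and without the discordant libraries 1.59 (adjusted p = 0.0048, with 0.405% called) and 0.68 (0.11). On NC it was 0.44 for Nr1d1 (adjusted p = 0.95) and 0.85 for Nr1d2 (adjusted p = 0.68), with 0.392% called. Without the discordant libraries the value for Nr1d1 on NC was 1.26 (adjusted p = 0.019, with 1.15% called).

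The diet comparison asked how the receptors and their timing changed on the steatohepatitis diet. In Hep-Bmal1WT livers the daily curve moved strongly: the vector difference between diets was 2.86 for Nr1d1 (adjusted p = 1.3e-07) and 1.54 for Nr1d2 (adjusted p = 6.4e-05), where 6.19% of genes were called, and 0.30 for Rora (adjusted p = 0.42). Without the discordant libraries the values were 2.75 and 1.49 for the REV-ERBs, both past the threshold with 5.98% of genes called. In Hep-Bmal1KO livers it was 1.19 for Nr1d1 (adjusted p = 0.16), 0.63 for Nr1d2 (0.49) and 0.31 for Rora (0.13), with 0.907% called. The unadjusted p of this test was 0.0065 for Nr1d1 and 0.0040 for Rora. No receptor passed without the discordant libraries, where 0.952% of genes were called. The values were then 1.01 for Nr1d1 (adjusted p = 0.056), 0.23 for Nr1d2 (0.82) and 0.33 for Rora (0.090). The test of the difference between genotypes in this change, added after these results were seen, gave 1.73 for Nr1d1 (adjusted p = 0.27) and 1.54 for Nr1d2 (adjusted p = 0.18), with 0.09% of genes called; without the discordant libraries both had an adjusted p of 0.043.

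Peak times from the cosinor described the move. In Hep-Bmal1WT livers Nr1d1 peaked at 8.09 h after lights on with NC and at 4.12 h with cdHFD, a shift of −3.97 h (SE 0.54, adjusted p = 1.6e-07). Nr1d2 peaked at 10.5 h and 5.88 h, a shift of −4.60 h (SE 0.69, adjusted p = 7.9e-07). Leaving out the discordant libraries gave −3.72 and −4.24 h. Over the 857 genes rhythmic in both groups (unadjusted cosinor p under 0.01) the median shift was −2.21 h, with quartiles of −4.23 and −0.54 h, and 42.7% were called. The Nr1d1 shift lay inside those quartiles and the Nr1d2 shift just outside them.

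In Hep-Bmal1KO livers Nr1d1 peaked at 8.42 h on NC and 6.18 h on cdHFD, a shift of −2.24 h (SE 0.82, adjusted p = 0.025), and Nr1d2 at 8.35 h and 7.78 h, a shift of −0.58 h (SE 1.19, adjusted p = 0.70). Leaving out the discordant libraries gave −2.63 h (adjusted p = 0.0014) and −0.95 h (0.44). The median shift of the 181 genes rhythmic in both of these groups was −1.77 h, and 45.3% were called. The shift of Nr1d2 was 4.02 h smaller in Hep-Bmal1KO than in Hep-Bmal1WT livers (SE 1.34, adjusted p = 0.0498 over the 91 genes with an unadjusted cosinor p under 0.01 in all 4 groups, of which 7.69% were called) and 3.29 h smaller without the discordant libraries (adjusted p = 0.092). For Nr1d1 the corresponding difference was 1.73 h (SE 1.01, adjusted p = 0.41). The comparison of shifts between genotypes was not among the tests planned beforehand.

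**Figure D3:**
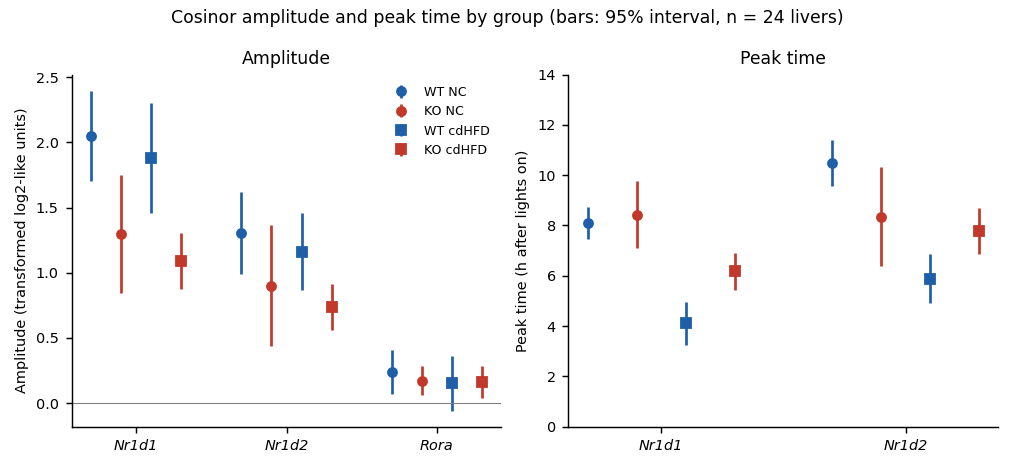
Cosinor amplitude (variance-stabilised log2-like units, left, 3 receptors) and peak time (h after lights on, right, Nr1d1 and Nr1d2) in the 4 groups of 24 livers; bars are 95% intervals. Nr1d1 in Hep-Bmal1WT livers moves from 8.09 h on NC to 4.12 h on cdHFD with amplitudes of 2.05 and 1.88.

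Between genotypes on the same diet, Hep-Bmal1KO livers on cdHFD peaked later than Hep-Bmal1WT by 2.06 h for Nr1d1 (adjusted p = 0.071) and 1.89 h for Nr1d2 (adjusted p = 0.17), against a median of 0.36 h over 559 genes, of which 5.01% were called. On NC the differences were 0.33 h for Nr1d1 and −2.13 h for Nr1d2 (adjusted p = 0.34). None of the 4 passed.

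The cosinor amplitude of Nr1d1 was 2.05 in Hep-Bmal1WT on NC, 1.298 in Hep-Bmal1KO on NC, 1.88 in Hep-Bmal1WT on cdHFD and 1.09 in Hep-Bmal1KO on cdHFD, all at or above the 99.95th percentile of the genes in its group. The amplitudes of Nr1d2 were 1.304, 0.90, 1.16 and 0.74 in the same order. The differences between genotypes did not pass over all genes, at −0.79 for Nr1d1 (adjusted p = 0.99) and −0.42 for Nr1d2 on cdHFD, where 0.0193% of genes were called. On NC the Nr1d1 difference was −0.75 with all libraries (adjusted p = 1) and −1.17 without the discordant ones (adjusted p = 0.0015, with 0.431% of genes called).

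The diet changed the daily mean of some receptors where it changed most genes: 55.7% of all genes were called in Hep-Bmal1WT and 61.9% in Hep-Bmal1KO livers, so a call here is close to the background. Rora fell by 0.30 on the log2 scale in Hep-Bmal1WT (SE 0.10, adjusted p = 0.0088) and by 0.16 in Hep-Bmal1KO livers (SE 0.067, adjusted p = 0.032). Neither passed without the discordant libraries, at −0.23 (0.052) and −0.12 (0.12), where 53.9% and 61.3% of genes were called. Nr1d2 rose by 0.73 in Hep-Bmal1KO livers (SE 0.22, adjusted p = 0.0041) and by 1.18 without the discordant libraries (9.1e-10). Its value in Hep-Bmal1WT was −0.21 (adjusted p = 0.45), and −0.19 without them (0.48). The genotype by diet interaction of Nr1d2 was 0.92 (SE 0.28, adjusted p = 0.054) with all libraries and 1.36 (6.9e-06) without the discordant ones, with 3.04% and 5.85% of genes called. Nr1d1 did not pass in either genotype, at −0.79 (adjusted p = 0.058) in Hep-Bmal1WT and −0.25 (adjusted p = 0.46) in Hep-Bmal1KO. In the absence of the discordant libraries these were −0.67 (0.11) and 0.32 (0.19), so the sign in Hep-Bmal1KO depended on them.

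Other cell types moved with the diet as well. The summed level of 6 hepatocyte markers fell from a median of 145600 to 71670 CPM in Hep-Bmal1WT and from 94910 to 60310 CPM in Hep-Bmal1KO livers. All 6 were called lower in each genotype, where 55.7% and 61.9% of all genes were called. The sum of 6 Kupffer cell and macrophage markers went from 254 to 853 CPM and that of 6 stellate cell and fibroblast markers from 261 to 637 CPM in Hep-Bmal1WT livers, all 12 called higher. In the same genotype 3 of 3 neutrophil, 3 of 6 lymphocyte and 2 of 5 cholangiocyte markers were called higher. Of 5 endothelial cell markers 3 were called higher and 1 lower. Whether the change in Rora or Nr1d2 came with this composition was not tested.

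Thra, which encodes thyroid hormone receptor alpha on the opposite strand, overlaps the 3′ end of Nr1d1 by 1075 bp, and whether counting used the strand is not stated in the sources used here. The genotype difference of Thra on NC was 0.34 (SE 0.085, adjusted p = 0.0046), higher in Hep-Bmal1KO where Nr1d1 was lower, and its cosinor amplitudes were 0.018 to 0.22, with no adjusted call in any group. Deviations of single livers from their cell means in Nr1d1 and Thra had r = 0 over 96 libraries and 0.27 over the 88 without the discordant ones. The part of shared reads in the Nr1d1 counts was not tested.

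Of the RORE clock targets, the 5 genes through which REV-ERBs and RORs act back on the clock, 2 were higher and none lower in Hep-Bmal1KO livers on NC, with a median log2 difference of 0.40 against −0.01 over all genes, of which 12.6% were called. Npas2, a partner of BMAL1, was higher by 1.93 (adjusted p = 8.8e-04), and Cry1, a repressor of the BMAL1 complex, by 1.07 (adjusted p = 5.6e-04). Nfil3, a repressor of D-box genes, had a value of 0.40 (adjusted p = 0.078), Clock 0.30 (0.063) and Arntl 0.02 (0.98). On cdHFD 1 of the 5 was called, Npas2 at 1.17 (adjusted p = 0.014). The others were Cry1 at 0.41, Nfil3 at 0.26, Clock at 0.19 and Arntl at −0.50, and the list median was 0.26 against 0.01 over all genes, of which 9.61% were called. With the discordant libraries left out, Npas2, Cry1 and Clock were higher on both diets, 3 of the 5 on each. Without those libraries 17.1% of all genes were called on NC and 13.3% on cdHFD.

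Of the E-box clock genes, which like Nr1d1 and Nr1d2 are driven by the BMAL1 complex, 2 of 10 were lower and 1 higher on NC (list median −0.25), against 5.61% of all genes called lower. With the discordant libraries left out 5 were lower, with Dbp, Per3 and Hlf added, and 1 higher, where 17.1% of all genes were called. Bhlhe41, a repressor of the complex, was at −2.12 (adjusted p = 0.014), Ciart, another repressor, at −1.84 (0.0016) and Cry2 at 0.32 (0.0093), while Dbp, a D-box activator, had a value of −0.77 (0.088). On cdHFD 9.61% of all genes were called with all libraries and 13.3% without the discordant ones. In both sets 6 of 10 E-box genes were lower and none higher (list median −0.33 with all libraries). They included the period gene Per3 (−0.72, adjusted p = 0.013), the D-box activators Hlf (−0.39, 0.013) and Dbp (−0.72, 0.020), the repressor Bhlhe40 (−0.30, 0.016) and Ciart (−0.94, 0.036).

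**Figure D4:**
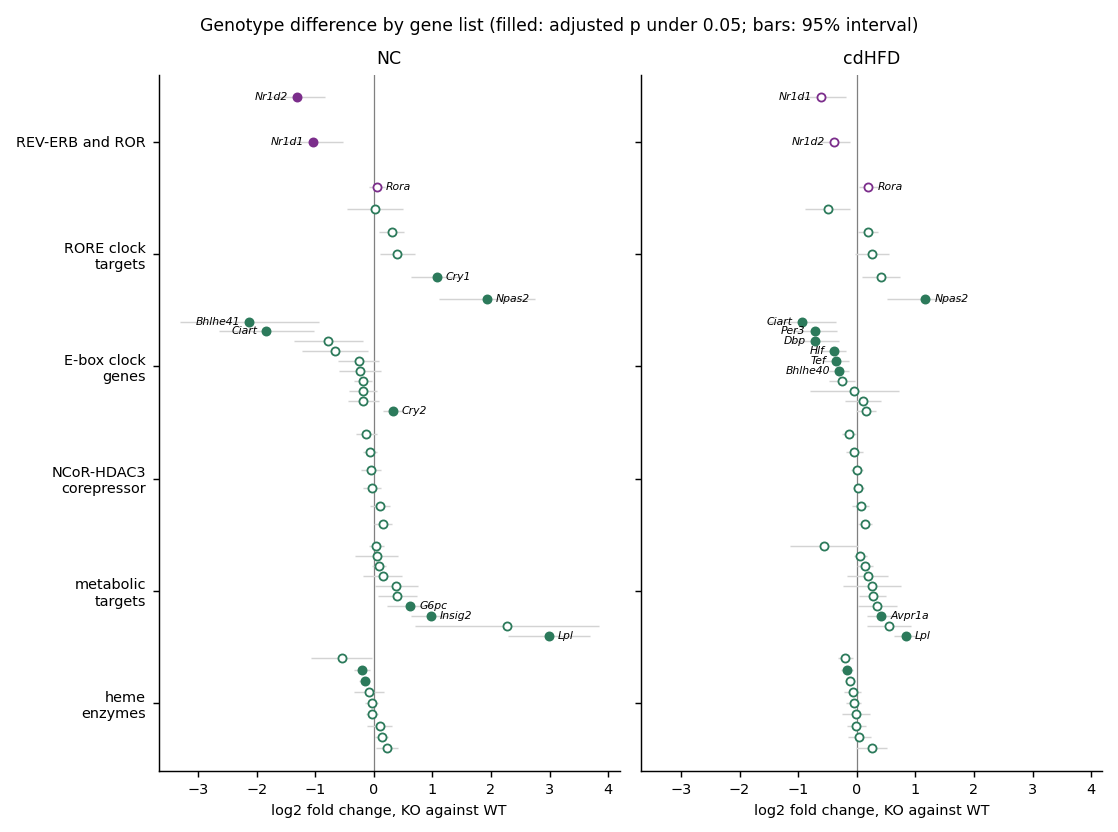
Log2 difference between Hep-Bmal1KO and Hep-Bmal1WT livers on NC and on cdHFD for the receptors and the genes of the RORE, E-box, corepressor, metabolic target and heme lists; filled points passed at an adjusted p under 0.05, and bars are 95% intervals. Among the filled points on NC, Lpl at 2.99 and Npas2 at 1.93 lie farthest to the right, with the open point of Elovl3 at 2.27 between them.

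None of the 6 NCoR-HDAC3 corepressor genes was called between genotypes by edgeR on either diet, which for a list of this size is near the background of 12.6% and 9.61%, with list medians of −0.05 and 0.01. At an unadjusted p under 0.05 there were 0 on NC and 2 on cdHFD, Hdac3 (0.15) and Tbl1xr1 (−0.14). The smallest p on NC belonged to Gps2 (0.15, adjusted p = 0.24). Of the 9 genes of heme synthesis and breakdown, which set the level of the REV-ERB ligand, Cpox (−0.20, adjusted p = 0.042) and Fech (−0.16, 0.026) were lower on NC, against 12.6% of all genes called. On cdHFD 1 of the 9 was lower with all libraries and 3 without the discordant ones, against 9.61% and 13.3% of all genes. Alad had a value of −0.19 (adjusted p = 0.056) and without them of −0.24 (0.012).

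Among 10 metabolic genes known as ROR or REV-ERB targets, 3 were higher in Hep-Bmal1KO livers on NC and none lower, with a list median of 0.39 and 12.6% of all genes called. With the discordant libraries left out 5 were higher on NC and 4 on cdHFD, where 17.1% and 13.3% of all genes were called. Lpl, lipoprotein lipase, which is normally low in adult hepatocytes, was higher by 2.99 (adjusted p = 8.4e-08), Insig2, a brake on SREBP processing, by 0.97 (8.0e-05) and G6pc, the last enzyme of glucose output, by 0.62 (0.030). Elovl3, a fatty acid elongase, had a value of 2.27 and did not pass (adjusted p = 0.053). On cdHFD Lpl at 0.83 (adjusted p = 3.5e-07) and the vasopressin receptor Avpr1a at 0.42 (0.023) were higher, against 9.61% of all genes called.

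The curves of some genes of the lists also differed between diets. In Hep-Bmal1WT livers the diet by rhythm interaction was called for 5 of 5 RORE targets, 7 of 10 E-box genes, 5 of 10 metabolic targets, 1 of 6 corepressor genes and 1 of 9 heme genes, against 6.19% of all genes. In Hep-Bmal1KO livers 1 metabolic target, G6pc, was called among these lists, against 0.907% of all genes, while 2 RORE targets and 3 E-box genes had an unadjusted p under 0.05. With the discordant libraries left out 1 RORE target, 1 E-box gene and 2 metabolic targets were called, against 0.952% of all genes. The peaks of the RORE targets in Hep-Bmal1WT livers came earlier, Arntl at 23.4 h on NC and 18.7 h on cdHFD, Cry1 at 20.1 and 16.2 h, and Nfil3 at 21.9 and 18.3 h. The E-box gene Dbp moved from 10.5 to 5.75 h and Per3 from 11.4 to 6.57 h. Earlier peaks on cdHFD were common in this genotype, at 81% of the 857 genes rhythmic in both groups, with a median shift of −2.21 h.

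**Figure D5:**
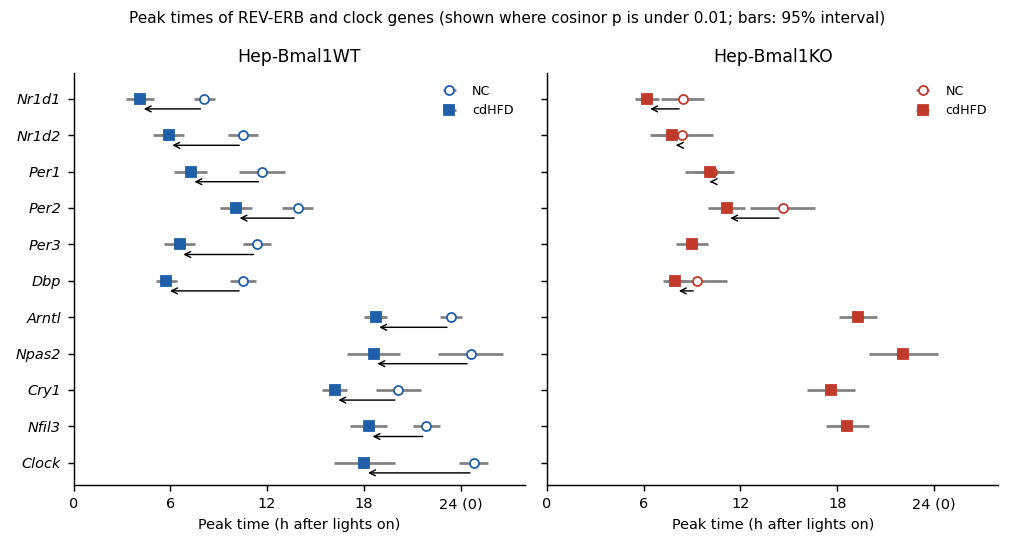
Cosinor peak times (h after lights on) of Nr1d1, Nr1d2 and clock genes on NC and on cdHFD in each genotype. They are shown where the cosinor p is under 0.01, and bars are 95% intervals. In Hep-Bmal1WT livers Arntl moves from 23.4 to 18.7 h and Dbp from 10.5 to 5.75 h.

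RORE targets were rhythmic in the cosinor in 5 of 5 genes in Hep-Bmal1WT on either diet, in 0 of 5 in Hep-Bmal1KO on NC and in 3 of 5 in Hep-Bmal1KO on cdHFD, with median amplitudes of 1.16, 1.08, 0.38 and 0.51 for Hep-Bmal1WT on NC and cdHFD and Hep-Bmal1KO on NC and cdHFD. In Hep-Bmal1KO on NC 1 of the 5 had an unadjusted p under 0.05, and the median amplitude there was 0.19 when the discordant libraries were left out. The cosinor called 17%, 12.4%, 2.19% and 2.32% of all genes in these groups. The E-box genes were rhythmic in 8, 7, 2 and 6 of 10 in the same order.

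Whether the genotype difference depended on sex was tested as an interaction: no receptor was called by edgeR, where 0.341% of genes were called on NC, although 1 receptor on each diet had an unadjusted p under 0.05. The nearest on NC was Nr1d2 at 1.19 (adjusted p = 0.29), and without the discordant libraries its interaction was 0.46 (adjusted p = 0.82). Both discordant chow-fed Hep-Bmal1KO livers were female. On cdHFD the nearest was Rora at 0.36 (adjusted p = 0.54), and 0.42 (0.25) without the discordant libraries.

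Over the 24 means of genotype, diet and time, the genes most like Nr1d2 were Dbp (Pearson's r = 0.916), Ciart (0.869), E130102H24Rik (0.868), Lpin2 (0.86) and Abcc2 (0.823), among 12271 genes with a mean of at least 1 CPM. Running opposite to it were Lgalsl (−0.931), Clpx (−0.876) and Rnf144b (−0.875). Those most like Nr1d1 were Cux2 (0.864), Tns2 (0.857), Rprd2 (0.855), Hnrnpdl (0.849) and Soat2 (0.846), with Ncbp2 and Acnat2 (both −0.858) and Cry1 (−0.833) at the other end. For Rora they were Mprip (0.824), Chd2 (0.821), Evi5 and Habp2 (both 0.799) and Kdm4b (0.789), with Gpatch4 (−0.815), Parp3 (−0.787) and Trub2 (−0.784) opposite. These are descriptions over means that share diet and time. Within cells, deviations of single livers from their mean in Nr1d1 and Nr1d2 had r = 0.66 over 96 libraries and 0.30 over 88 without the discordant ones. The within-time SD of Nr1d2 in chow-fed Hep-Bmal1KO livers was 0.95 on the log2 scale with all libraries and 0.61 without those 2, and in chow-fed Hep-Bmal1WT livers 0.66 and 0.30.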

How the data were processed

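The deposited table held raw read counts per gene for 96 libraries, made by the authors with STAR, HTSeq and featureCounts on mm10 (versions, strand setting and collapse of molecular identifiers not given in the sources used here). Rows for unaligned reads (19.4%) and reads in no feature (8.06%) were left out. Libraries were normalised by TMM, and 15548 genes with at least 100 counts were tested with edgeR 4.0.16 in R 4.3.3 (quasi-likelihood, ZT as a factor, Benjamini-Hochberg over all genes, threshold 0.05). DESeq2 1.42.0 served as an alternative and supplied the variance-stabilised values for cosinor fits with a 24-hour period. Scripts were tested on simulated data. Named were all RORE targets, up to 4 genes of each other list with the smallest p for genotype on either diet, and for each receptor the 5 genes most and 3 least like it. The receptors and lists were chosen with earlier results of these data known. Counts at the trough are few, which limits precision there. Y-linked counts matched the sex label in all 96 libraries. No column was identical to another (replicate r 0.924 to 0.9798). Promoter sequences were not analysed here. Some genes of the lists are not reported here by name.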

Additional observations from a re-analysis of the deposited data

Results flagged for a closer look

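In 4 of 72 groups of 4 livers the highest or lowest value stood apart by Dixon's test, where chance gives about 1 in 20 groups, or 3.6. Nr1d1 was 2.85 CPM in Hep-Bmal1WT replicate 2 on NC at ZT22, with the nearest liver at 1.83 CPM. It was 3.80 CPM in Hep-Bmal1WT replicate 2 on cdHFD at ZT14, with the nearest at 1.26 CPM. Nr1d2 was 11 CPM in Hep-Bmal1WT replicate 2 on NC at ZT6, with the nearest at 45.96 CPM, and this liver was 1 of the 8 nearer the other genotype label. Nr1d2 was 1.04 CPM in Hep-Bmal1KO replicate 2 on NC at ZT18, with the nearest at 4.26 CPM.

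The daily curve differed between groups by an interaction test in 3 cases. In Hep-Bmal1WT livers it differed between diets for Nr1d1 (vector difference 2.86 on the log2 scale) and Nr1d2 (1.54). On cdHFD it differed between genotypes for Nr1d1 (1.69).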

How the results depend on the processing

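No paired analysis was possible because the labels carry no replicate numbers (those used here follow the order of the deposit). No result past the threshold changed sign, but 27 values of results that did not pass did. Among them, the diet effect of Nr1d1 in Hep-Bmal1KO was −0.25 in the main test, 0.50 in males and 0.32 without the discordant libraries. The cause of the changes below was not tested, although single-sex and left-out fits use fewer libraries. On NC, females alone gave 578 genes by genotype, with −0.72 for Nr1d1 (adjusted p = 0.18) and −0.85 for Nr1d2 (0.099). On cdHFD, no filter gave −0.60 for Nr1d1 (0.017) and −0.39 for Nr1d2 (0.023), sex as a covariate −0.63 for Nr1d1 (0.048), and females 0.40 for Rora (0.0048), with 802 genes in males and 647 in females. For the diet, Rora in Hep-Bmal1WT males was −0.12 (0.49). In Hep-Bmal1KO it was −0.12 with DESeq2 or its size factors, −0.16 without a filter, −0.14 in males and −0.15 in females, none passing, and Nr1d2 in females was 0.26 (0.49). The genotype by diet value of Nr1d2 was 0.95 with DESeq2, 0.92 with at least 10 counts in 24 libraries, 0.91 with no filter or with sex, and 1.51 in males, all passing, and 153 genes passed in females.

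Without the discordant libraries, genotype on cdHFD gave −0.78, −0.50 and 0.25 for Nr1d1, Nr1d2 and Rora, the diet −0.23 and −0.12 for Rora in Hep-Bmal1WT and Hep-Bmal1KO, genotype by diet 1.36 for Nr1d2 and 910 genes, genotype by rhythm on NC 1.26 for Nr1d1 and 179 genes, and the 3-way test of genotype by diet by rhythm 1.89 for Nr1d1, 1.31 for Nr1d2 and 61 genes. Genotype by rhythm on NC gave 61 genes in the main test and 32 with DESeq2, 0 with the 10-count filter, 143 without a filter, 29 in males and 39 in females. On cdHFD it gave 66, and 20 with DESeq2, 9 with the 10-count filter, 175 without one and 0 in females; Nr1d1 was 1.47 in males and 2.12 in females and Nr1d2 0.70 without a filter. Diet by rhythm gave 963 genes in Hep-Bmal1WT, 462 in males and 234 in females, and 141 in Hep-Bmal1KO, 346 with DESeq2, 226 without a filter, 223 with sex, 58 in males and 44 in females. The 3-way test gave 14, and 41 with DESeq2, 8 with its size factors, 6 with the 10-count filter, 147 without one and 32 in males.

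Peak differences between genotypes on NC for Nr1d2 were −3.07 h in males, −1.49 h in females, −1.87 h without discordant libraries and −0.85 h with a second harmonic, which gave −0.45 h for Nr1d1. On cdHFD they were 1.88 h in females and 0.50 h with the harmonic for Nr1d1, and 2.20 and 3.80 h for Nr1d2. Amplitude differences were −0.60 for Nr1d1 on NC in females, −0.77 for Nr1d2 without discordant libraries, −0.48 for Nr1d1 on cdHFD in males, −0.30 for Nr1d2 in males and −0.66 with the harmonic, and −0.18 for Rora with it. The diet shift of Nr1d1 in Hep-Bmal1KO was −2.22 h in females and −3.50 h with the harmonic.

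Leaving out replicate 1, 2, 3 or 4 of every group gave 940 to 1630 genes by genotype on NC and −1.39 to −0.89 for Nr1d1. On cdHFD it gave 522 to 1376 genes, −0.46 to −0.27 for Nr1d2 and 0.15 to 0.26 for Rora. The diet gave −0.35 to −0.25 for Rora in Hep-Bmal1WT, and 0.54 to 0.99 for Nr1d2 and −0.20 to −0.13 for Rora in Hep-Bmal1KO. Genotype by diet gave 103 to 373 genes and 0.75 to 1.14 for Nr1d2. Genotype by rhythm gave 1 to 38 genes on NC, and 12 to 35 with 1.47 to 1.92 for Nr1d1 on cdHFD. Diet by rhythm gave 348 to 534 and 3 to 17 genes, and the 3-way test 1 to 17. Amplitude differences were −0.87 to −0.58 for Nr1d1 on NC and −0.52 to −0.35 for Nr1d2 on cdHFD. Peak differences were −3.14 to −1.73 h for Nr1d2 on NC, 1.62 to 2.26 h for Nr1d1 and 1.60 to 2.33 h for Nr1d2 on cdHFD, and −2.77 to −1.87 h for the diet shift of Nr1d1 in Hep-Bmal1KO.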
